A study of Rattus norvegicus with 24 samples.

Results

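The 8 transporters described here move bile acids, phospholipid and organic anions across the 2 faces of the hepatocyte. They were chosen by name, as the non-control probes of the array annotated to Slc10a1, Slco1a1, Slco2b1, Abcb11, Abcb4, Abcc2, Abcc3 and Abcc4. They accounted for 9 of the 30367 non-control probes, with 2 probes for Abcc4 and 1 for each other gene. The samples were livers of 24 male Wistar rats, each hybridised to a 1-colour Agilent array of its own. All rats ate a diet with 1% cholesterol for 42 days, so no group without added cholesterol was compared. The Ch group (8 rats) ate this diet alone, the ChGENE group (8 rats) ate it with 5% freeze-dried Geneva kiwifruit, and the ChHAYW group (8 rats) with 5% freeze-dried Hayward kiwifruit. The 8 arrays of a diet lay on 1 slide and were scanned together, so what the diet did and what the slide did cannot be told apart here.

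Hepatocytes take up bile acids from portal blood at the basolateral membrane and pump them into bile at the canalicular membrane. Slc10a1 (NTCP) is the sodium-dependent bile acid carrier of the basolateral side, and Slco1a1 and Slco2b1 belong to the family of organic anion transporting polypeptides. At the canaliculus, Abcb11 (BSEP) exports bile salts, Abcb4 flips phosphatidylcholine towards bile, and Abcc2 (MRP2) exports conjugated organic anions. Abcc3 (MRP3) and Abcc4 (MRP4) return bile acids and conjugates to the blood and are known for their induction in cholestasis. Bile acids themselves regulate this set through the nuclear receptor FXR (Nr1h4) and its target SHP (Nr0b2). A bulk sample cannot separate fewer hepatocytes from less of a transcript in each hepatocyte.

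Each level below is the log2 intensity of a probe minus the 75th percentile of the same array, so that 0 is the level of that percentile and 1 unit is a doubling. Levels of different probes are not comparable with each other. The 75th percentile itself lay between 188 and 652.8 intensity units in Ch rats (median 421), between 388 and 775.4 in ChGENE rats (median 675) and between 408 and 1049 in ChHAYW rats (median 731). All 8 hepatocyte markers, among them Alb (albumin), were above background in all 24 rats, and their summed levels overlapped between diets (Ch rats 1520 to 2650, ChGENE rats 1350 to 2250 and ChHAYW rats 1210 to 2250, on the linear scale). Alb itself differed from Ch by -0.51 in ChGENE and -0.59 in ChHAYW (log2 change, adjusted p = 0.115 in both). Of the 8 hepatocyte markers, 3 had a higher and 4 a lower mean in ChHAYW than in Ch (median log2 change -0.12). The summed level of 4 neutrophil markers, 1 of them above background in every rat, was 32.5 and 33.8 in ChGENE rats 4 and 5 and at most 0.976 in every other rat. In ChGENE against Ch, 6 of the 8 hepatocyte markers had a lower mean (median log2 change -0.34) and all 6 Kupffer cell markers a higher one (median 0.43), and none passed the test. Their part in the lower means of the uptake carriers was not tested. The summed levels of the lists of cholangiocyte, Kupffer cell, stellate cell, sinusoidal endothelial, T and NK cell, B cell and erythroid markers overlapped in range between the diets.

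What each level rests on is a 60-base probe. The probes of Abcb11, Abcb4, Abcc3 and the second of Abcc4 are shown: those of Abcb11 and Abcc3 carry the widest spread among rats, that of Abcb4 crosses a splice junction, and the second of Abcc4 differed from the first in its values. The first lies at chr3_random:691617-691676 of rn4, the build of the array files, on a stretch that this build does not place within the chromosome. The Abcb4 probe spans chr4:22000547-22003326, which is 2780 bases for 60 bases of probe. The Abcc3 probe lies at chr10:82987122-82987181 on the minus strand, and Abcc4 probe 2 at chr15:103394378-103394437 on the minus strand. The letters run 5′ to 3′ as the array files give them.
Abcb11: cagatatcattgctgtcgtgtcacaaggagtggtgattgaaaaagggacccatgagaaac
Abcb4: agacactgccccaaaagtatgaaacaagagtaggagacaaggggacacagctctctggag
Abcc3: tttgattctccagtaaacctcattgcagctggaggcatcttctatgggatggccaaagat
Abcc4 probe 2: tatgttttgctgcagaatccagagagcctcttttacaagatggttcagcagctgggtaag
Abcc4 probe 1 lies 9455 bases away in the same gene. The Slc10a1 probe at chr6:104735910-104735969, the Slco1a1 probe at chr4:179492687-179492746, the Slco2b1 probe at chr1:156993236-156993295 and the Abcc2 probe at chr1_random:3595866-3595925 are given by position only. Slc10a1 and Abcc2 were printed as 10 spots on each array, and the median SD between the spots of 1 array was 0.0318 and 0.0446. Abcb11 was printed as 2 spots with a median SD of 0.0249. The spread between rats described below was larger than this error at all 8 probes printed more than once. Abcc4 probe 2 was printed as 1 spot.

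**Figure D1:**
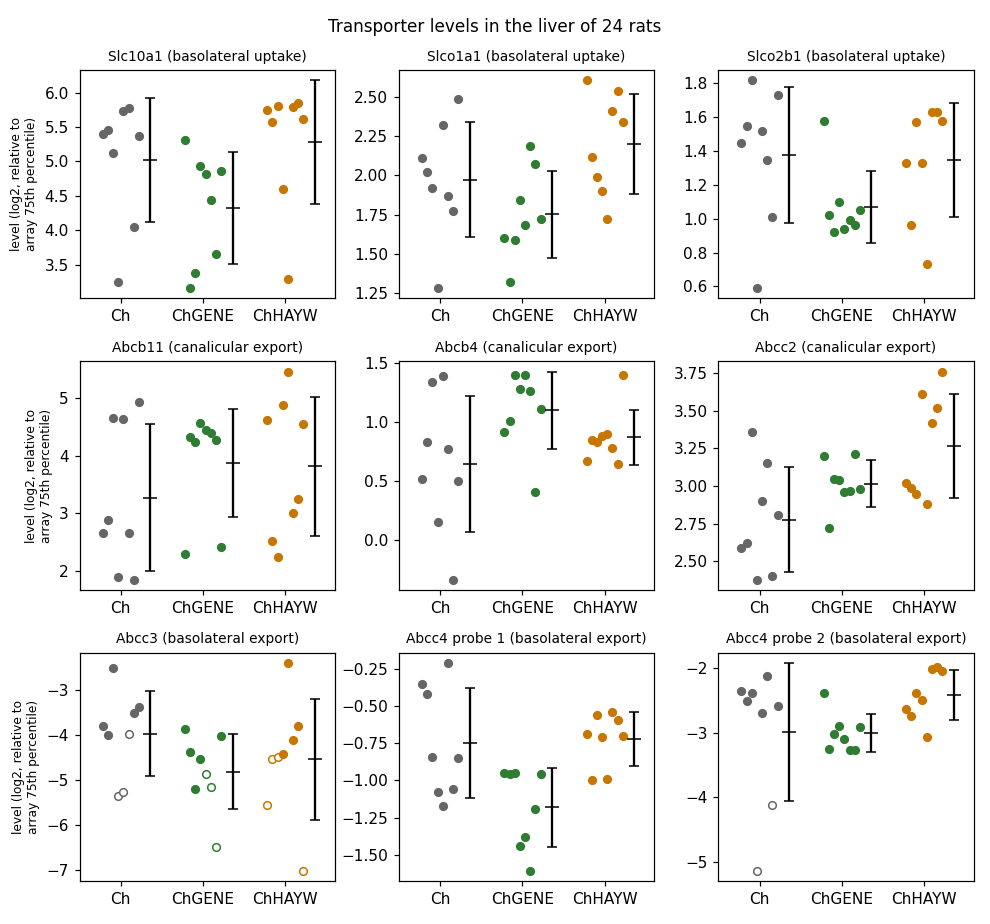
Level of each transporter probe (log2, relative to the 75th percentile of the array, y axis) in the 8 rats of each diet (x axis). Points are rats, open points are rats where the probe was not above background, and the bar beside them is the mean ± SD; the ranges of the 3 diets overlap in every panel.

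On the uptake side, all 3 carriers had their lowest mean in ChGENE. Slc10a1 ranged from 3.25 to 5.78 in Ch (median 5.39), from 3.16 to 5.31 in ChGENE (median 4.63) and from 3.29 to 5.85 in ChHAYW (median 5.67). Every diet thus held rats at the bottom of the range, and 3 of 8 ChHAYW rats exceeded all Ch rats. The ChGENE mean of 4.32 ± 0.81 (SD, n = 8) was 1.62-fold lower than the Ch mean of 5.02 ± 0.90, with a log2 change of -0.70 (95% interval -1.53 to 0.14) that did not pass the test (limma, adjusted p = 0.273). The ChHAYW mean of 5.28 ± 0.90 differed from Ch by 0.26 (95% interval -0.61 to 1.14; adjusted p = 0.699).

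Slco1a1, an uptake carrier of steroid conjugates and bile acids, ranged from 1.28 to 2.49 in Ch (median 1.97), from 1.32 to 2.19 in ChGENE (median 1.70) and from 1.72 to 2.61 in ChHAYW (median 2.23). ChGENE was 0.22 below Ch (95% interval -0.58 to 0.14; adjusted p = 0.43) and ChHAYW 0.23 above it (95% interval -0.14 to 0.60; adjusted p = 0.41). Slco2b1 was narrow in ChGENE, where 7 of 8 rats lay between 0.92 and 1.1 and rat 1 stood at 1.58. It ranged from 0.59 to 1.82 in Ch (median 1.49) and from 0.73 to 1.63 in ChHAYW (median 1.45). Its log2 change was -0.31 in ChGENE (95% interval -0.67 to 0.05; adjusted p = 0.254) and -0.03 in ChHAYW (95% interval -0.43 to 0.36; adjusted p = 0.924). The lower means of Slco1a1 and Slco2b1 in ChGENE turned to higher ones (0.24 and 0.15) when the arrays were scaled to the E1A spike-in probes, a scaling that moved the median of all probes from -0.16 to 0.30.

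On the canalicular side, all 3 exporters had their lowest mean in Ch. Abcb11 ranged from 1.85 to 4.93 in Ch (median 2.77), from 2.30 to 4.57 in ChGENE (median 4.31) and from 2.24 to 5.46 in ChHAYW (median 3.90). The range of ChGENE lay within that of Ch, and every diet held rats below 3.25 and above 4.23. The means were 3.87 ± 0.94 in ChGENE, 3.82 ± 1.21 in ChHAYW and 3.27 ± 1.27 in Ch (SD, n = 8 each). The log2 changes over Ch were 0.60 for ChGENE (95% interval -0.48 to 1.68; adjusted p = 0.483) and 0.55 for ChHAYW (95% interval -0.65 to 1.75; adjusted p = 0.546), and neither passed the test. An interval this wide holds ratios of ChGENE to Ch from 0.717 to 3.21.

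Abcb4, the phospholipid flippase, ranged from -0.33 to 1.39 in Ch (median 0.64), from 0.41 to 1.40 in ChGENE (median 1.19) and from 0.65 to 1.40 in ChHAYW (median 0.84). In ChHAYW 7 of 8 rats lay between 0.65 and 0.90. The log2 change over Ch was 0.45 in ChGENE (95% interval -0.03 to 0.93; adjusted p = 0.215) and 0.22 in ChHAYW (95% interval -0.23 to 0.68; adjusted p = 0.517).

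Abcc2 was the member with the smallest adjusted p in ChHAYW. It ranged from 2.38 to 3.36 in Ch (median 2.71), from 2.72 to 3.21 in ChGENE (median 3.01) and from 2.88 to 3.76 in ChHAYW (median 3.22). Of the 8 ChHAYW rats, 4 lay above all Ch rats, and the ChHAYW rat was the higher one in 85.9% of the pairs of a ChHAYW and a Ch rat. The mean of ChHAYW was 3.27 ± 0.35 and that of Ch 2.77 ± 0.35 (SD, n = 8 each), which is 1.41-fold higher (95% interval 1.09 to 1.83). The adjusted p was 0.114, so the difference did not pass. It passed without Ch replicate 3 (log2 change 0.58, adjusted p = 0.0397), the Ch rat with the highest Abcc2, and without any other single rat it did not. Without Ch replicate 3, 12.1% of all probes passed in this comparison, beside 0% with it, so the change of calls was not particular to Abcc2. In ChGENE the log2 change was 0.24 (95% interval -0.07 to 0.56; adjusted p = 0.317).

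On the basolateral export side, Abcc3 was close to background. It was above background in 5 of 8 rats of Ch, 5 of ChGENE and 4 of ChHAYW. It ranged from -5.35 to -2.52 in Ch (median -3.88), from -6.48 to -3.87 in ChGENE (median -4.70) and from -7.02 to -2.40 in ChHAYW (median -4.45). The log2 change was -0.84 in ChGENE (95% interval -1.71 to 0.03; adjusted p = 0.2) and -0.57 in ChHAYW (95% interval -1.69 to 0.55; adjusted p = 0.497), from values of which many had no measured signal above background.

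Abcc4 was measured by a brighter probe 1, above background in all 24 rats, and by a dimmer probe 2, above background in 6 of 8 Ch rats and all others. At probe 1 the level ranged from -1.17 to -0.21 in Ch (median -0.85), from -1.61 to -0.95 in ChGENE (median -1.07) and from -1 to -0.54 in ChHAYW (median -0.70). In ChGENE 4 of 8 rats lay below all Ch rats. The mean was 1.35-fold lower in ChGENE than in Ch (log2 change -0.43, 95% interval -0.79 to -0.08; adjusted p = 0.112), and it was 0.02 away from Ch in ChHAYW (95% interval -0.31 to 0.35; adjusted p = 0.932). At probe 2 the level ranged from -5.14 to -2.12 in Ch (median -2.54), from -3.27 to -2.39 in ChGENE (median -3.05) and from -3.06 to -1.98 in ChHAYW (median -2.44). The change in ChGENE at probe 2 was -0.02 (95% interval -0.79 to 0.74; adjusted p = 0.974), so the probes differed in size, and the 2 Ch rats below background (rats 4 and 7) were the lowest of all rats at this probe. The probes differed in ChHAYW as well, where the change over Ch at probe 2 was 0.56 (95% interval -0.22 to 1.35, adjusted p = 0.34). The spike-in scaling turned the ChGENE change to 0.03 at probe 1 and 0.44 at probe 2.

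None of the 9 transporter probes passed in any comparison, the threshold being a 1.3-fold difference together with an adjusted p below 0.05 (limma, Benjamini-Hochberg adjustment over all 30367 probes). In ChGENE against Ch it was 0 of 9, beside 97 of all probes (0.319%). In ChHAYW against Ch it was 0 of 9, beside 0 of all probes (0%). At the same fold and an unadjusted p below 0.05, 1 of 9 passed in each (Abcc4 probe 1 for ChGENE, Abcc2 for ChHAYW), beside 24.6% and 22.8% of all probes. The median log2 change of the 9 probes was -0.22 in ChGENE and 0.23 in ChHAYW, beside -0.16 and -0.18 over all probes. Over the 14045 probes above background on all arrays it was -0.05 and -0.04. The methods' t-test also called 0 of 9, while limma with array weights called 3 in ChGENE (Abcc4 probe 1, Slc10a1 and Slco2b1, all lower) and 1 in ChHAYW (Abcc2, higher), where it called 12.1% and 18.8% of all probes.

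**Figure D2:**
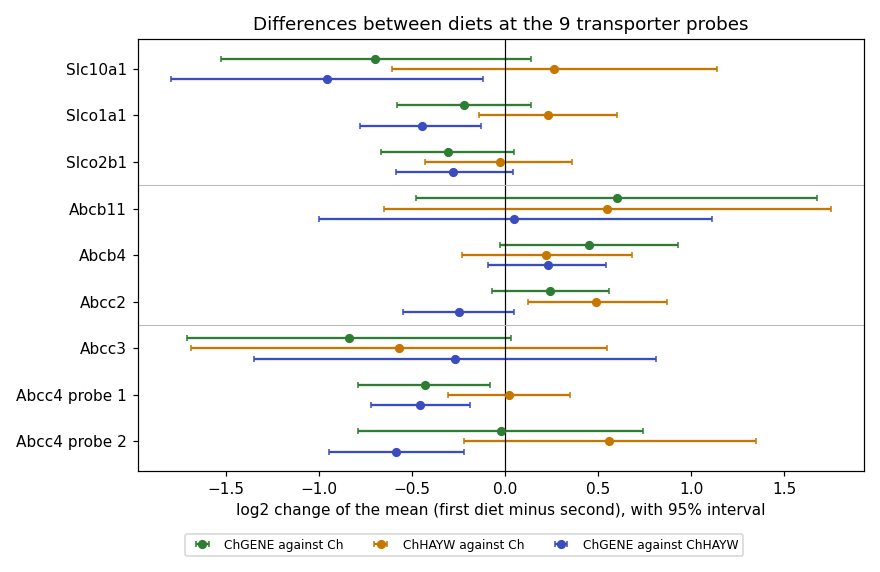
Log2 change of the mean level (x axis) at the 9 transporter probes (y axis) in the 3 comparisons. Points are the limma estimates and bars their 95% intervals; grey lines part uptake, canalicular export and basolateral export. The intervals of Abcb11 and Abcc3 are the widest, and the uptake carriers lie left of 0 in both comparisons of ChGENE.

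The diets with the 2 kiwifruit cultivars were compared directly as well, which also tests whether their effects over Ch differed. All 3 uptake carriers and both Abcc4 probes had a lower mean in ChGENE than in ChHAYW. Slc10a1 was 1.94-fold lower in ChGENE (log2 change -0.96, 95% interval -1.80 to -0.12; adjusted p = 0.534), and 1 ChGENE rat lay below all ChHAYW rats. Slco1a1 was 1.37-fold lower (log2 change -0.45, 95% interval -0.78 to -0.13; adjusted p = 0.424), with 4 of 8 ChGENE rats below all ChHAYW rats. Abcc4 was 1.37-fold lower at probe 1 (95% interval of the log2 change -0.72 to -0.19; adjusted p = 0.268) and 1.5-fold lower at probe 2 (-0.95 to -0.22; adjusted p = 0.317), again with 4 of 8 ChGENE rats below all ChHAYW rats at each probe. The remaining differences were -0.28 for Slco2b1 (95% interval -0.59 to 0.04), -0.25 for Abcc2 (-0.55 to 0.05), -0.27 for Abcc3 (-1.35 to 0.81), 0.23 for Abcb4 (-0.09 to 0.54) and 0.05 for Abcb11 (-1 to 1.11).

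No transporter probe passed in this comparison, where 2 of all probes (0.00659%) did. Before adjustment, at the same 2 limits on p and fold, 4 of 9 probes passed (Slc10a1, Slco1a1 and both Abcc4 probes), beside 5.93% of all probes. The 2 Abcc4 probes report on 1 gene, so these are 3 genes. The median log2 change of the 9 probes was -0.28, beside -0.01 over all probes. The directions of these 4 probes held in all 15 other settings and without any single rat. Log2 changes ran from -1.15 to -0.87 for Slc10a1 and from -0.64 to -0.40 for Slco1a1 across the settings. Several settings changed only the test or the probe filter and left the log2 change as it was. The 4 probes were also picked by their p in the same data, so the held directions add no support. From the lowest mean to the highest the order of the diets was ChGENE, Ch and ChHAYW for Slc10a1 and Slco1a1, and no neighbours in that order, nor its ends, differed past the threshold. The place of Ch in it was not stable. With the brightness of the array (its 75th percentile) as a covariate ChHAYW lay below Ch at both genes (-0.31 and -0.12), and with spike-in scaling ChGENE lay above Ch at Slco1a1 (0.24).

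The spread among rats on 1 diet was the most uneven feature of the set. The pooled SD within diets was 1.15 for Abcb11 and 0.87 for Slc10a1 on the log2 scale, larger than that of 99.5% and 98.1% of the 14045 probes above background on all arrays, whose median SD was 0.319. Abcc2 (0.298), Abcc4 probe 1 (0.283), Slco1a1 (0.324) and Slco2b1 (0.327) lay near that median, and Abcb4 (0.405) above it. Abcc3 (1.06) and Abcc4 probe 2 (0.675) were also wide but were not above background in every rat. From the lowest to the highest rat of a diet, Abcb11 spanned 8.44-fold in Ch, 4.85-fold in ChGENE and 9.33-fold in ChHAYW. Slc10a1 spanned 5.8-fold, 4.43-fold and 5.90-fold.

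The levels of Abcb11 fell into separate low and high sets. In Ch, 5 rats lay between 1.85 and 2.88 and 3 between 4.64 and 4.93. In ChGENE, 2 rats lay between 2.30 and 2.42 and 6 between 4.23 and 4.57. In ChHAYW, 4 rats lay between 2.24 and 3.25 and 4 between 4.55 and 5.46. Over all 24 rats no level fell between 3.25 and 4.23, a gap of 0.99 with 11 rats below and 13 above. A gap at least as large with 5 or more rats on either side was present at 20 of the 14045 probes above background on all arrays (0.142%). This feature was chosen after the values were seen, and it is given as a description. The gap ranged from 0.89 to 0.99 under the other scalings and spot settings, although the spike-in scaling placed 9 rats below it and 15 above. Slc10a1 showed no such break: its largest gap was 0.39, with 6 rats below and 18 above.

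**Figure D3:**
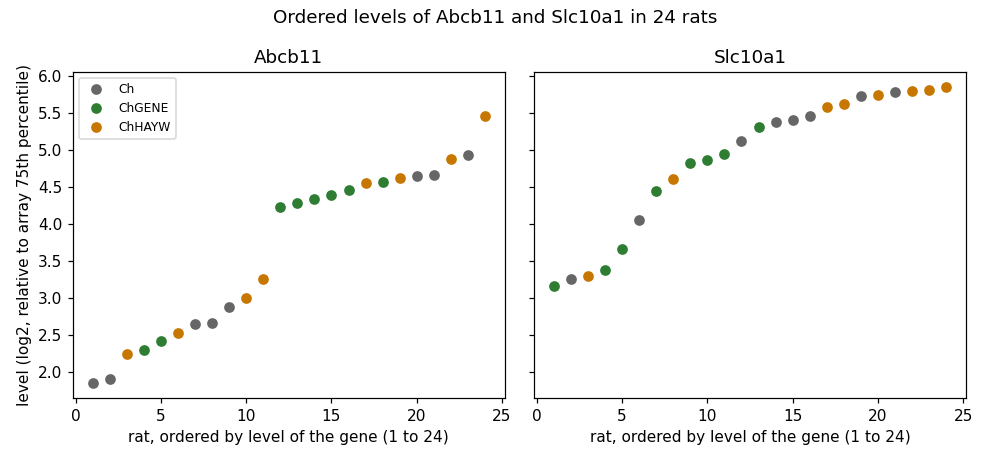
Levels of Abcb11 (left) and Slc10a1 (right) in 24 rats, ordered from the lowest to the highest (x axis), on the log2 scale relative to the 75th percentile of the array (y axis). Each point is a rat, coloured by diet. Abcb11 has no rat between 3.25 and 4.23, and rats of all 3 diets lie on both sides; Slc10a1 rises without a gap of that size.

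To find which transporters varied together among rats on the same diet, the diet means were removed and the levels were correlated over the 24 rats, at the brighter probe of Abcc4. The 28 pairs of genes were tested by permuting rats within diets, two-sided, with adjustment over the pairs. The uptake carriers Slc10a1 and Slco2b1 gave a Pearson's r of 0.74 (permutation p = 0.00035, adjusted p = 0.0098) and a Spearman's rho of 0.58 (p = 0.00386, adjusted p = 0.0624). Within diets r was 0.83 for Ch, 0.76 for ChHAYW and 0.58 for ChGENE. Without the 2 rats farthest from the median of Slc10a1 it was 0.51. Slc10a1 and Slco1a1 gave r = 0.63 (permutation p = 0.00157, adjusted p = 0.022) and rho = 0.42 (p = 0.047, adjusted p = 0.263). Within diets r was 0.80 for Ch, 0.77 for ChHAYW and 0.22 for ChGENE, and without the 2 farthest rats it was 0.40.

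The third pair joined an uptake carrier and a canalicular pump. Slco2b1 and Abcc2 gave r = 0.63 (permutation p = 0.00402, adjusted p = 0.0375) and rho = 0.60 (p = 0.00446, adjusted p = 0.0624), with r of 0.70 within Ch, 0.62 within ChHAYW and 0.41 within ChGENE. Without the 2 farthest rats r was 0.52. By rho, without the 2 farthest rats and under median scaling (r of 0.74 against 0.73) the value of this pair was as high as that of Slc10a1 and Slco2b1 or slightly higher. These 3 of 28 pairs passed by r, and 0 passed by rho. Under median scaling 8 pairs passed by r. No pooled correlation is given for Abcb11, whose levels fall into separate sets. The brightness of the array moved with these levels. Within diets, the log2 of an array's 75th percentile correlated with the scaled level of Slco1a1 (r = 0.65, rho = 0.62), Slco2b1 (0.61, 0.60), Abcc2 (0.58, 0.51) and Slc10a1 (0.50, 0.47), with adjusted permutation p over 8 relations of 0.019, 0.0251, 0.0254 and 0.0374 for r and 0.0161, 0.0161, 0.0537 and 0.0537 for rho. Without the 2 farthest rats these r were 0.50, 0.59, 0.47 and 0.46. The median r with brightness over the 14045 probes above background was -0.09. With brightness taken out of both genes the r of the 3 pairs fell from 0.74 to 0.63, from 0.63 to 0.47 and from 0.63 to 0.43.

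**Figure D4:**
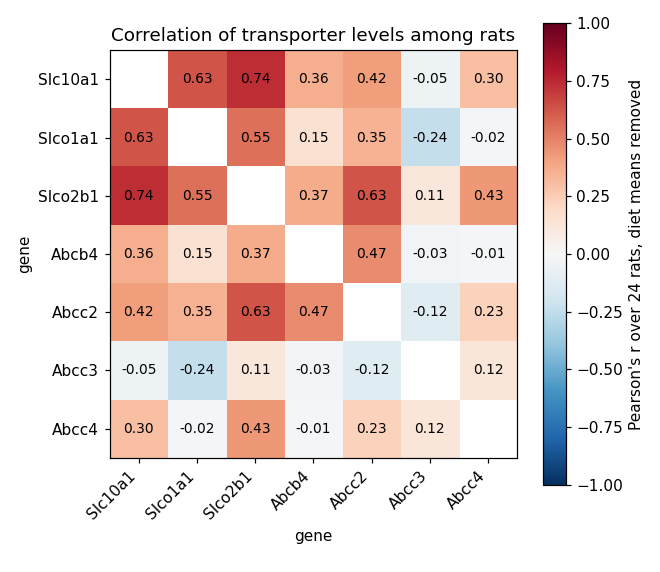
Pearson's r between the levels of 7 transporters over 24 rats after removal of the diet means (genes on both axes, colour and number give r). The highest values join Slc10a1 with Slco2b1 (0.74) and Slco1a1 (0.63), and Slco2b1 with Abcc2 (0.63); Abcb11 is left out.

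With brightness as a covariate in the comparisons of diets, the members moved as follows. In ChGENE against Ch the change of Slc10a1 went from -0.70 to -1.52, that of Abcb11 from 0.60 to -0.13 and that of Abcc2 from 0.24 to 0.02. In ChHAYW against Ch, Slc10a1 went from 0.26 to -0.31, Abcb11 from 0.55 to -0.52 and Abcc2 from 0.49 to 0.20. No transporter probe passed in these fits. The arrays of ChGENE and ChHAYW were brighter than those of Ch, so the part of brightness in these differences and that of diet cannot be told apart.

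For each member the gene with the most similar pattern was sought among 10488 other genes above background in all rats, by r over the 24 rats after removal of the diet means. For Slc10a1 it was Stard10, a phospholipid transfer protein of hepatocytes (r = 0.97, rho = 0.84, and r of 0.99, 0.93 and 0.99 within Ch, ChGENE and ChHAYW). For Slco2b1 it was Ugt2b15, a glucuronosyltransferase (r = 0.91), and for Slco1a1 Hrsp12 (r = 0.89). For Abcc2 it was Dtymk, thymidylate kinase (r = 0.84), and for Abcb4 Agxt, the peroxisomal alanine-glyoxylate aminotransferase (r = 0.83), where rho was 0.55. Within Ch, ChGENE and ChHAYW, r was 0.96, 0.18 and 0.89 for Dtymk and 0.96, 0.47 and 0.53 for Agxt. For Abcc4 it was Reep6 (r = 0.77) and for Abcc3 Cd300lf (r = 0.67). For Abcb11 it was Grpel2, with no pooled r given because the levels of Abcb11 fall into separate sets. These values are the highest of many and are descriptions of the 24 arrays, which share the brightness described above.

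The promoters of 3 of the 4 members in the pairs that passed, Slc10a1, Slco2b1 and Abcc2, are shown as the 250 bases before the transcript start, from RefSeq on GRCr8, a different build from that of the array files. Capitals mark AGGTCA, a half-site of nuclear receptors, and GTTAAT, a half-site of HNF1, on either strand. They lie at chr6:106357945-106358194 on the minus strand, chr1:163408066-163408315 on the minus strand and chr1:252613625-252613874 on the plus strand.
Slc10a1: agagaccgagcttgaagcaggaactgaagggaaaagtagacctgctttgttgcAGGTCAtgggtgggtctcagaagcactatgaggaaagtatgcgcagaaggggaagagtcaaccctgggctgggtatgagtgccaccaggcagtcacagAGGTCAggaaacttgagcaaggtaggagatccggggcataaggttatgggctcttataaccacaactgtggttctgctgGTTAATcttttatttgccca
Slco2b1: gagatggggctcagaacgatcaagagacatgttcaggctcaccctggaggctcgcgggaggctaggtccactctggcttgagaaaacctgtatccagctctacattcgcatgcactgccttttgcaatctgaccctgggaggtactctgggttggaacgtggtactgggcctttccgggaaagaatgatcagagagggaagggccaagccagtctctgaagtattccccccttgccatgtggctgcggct
Abcc2: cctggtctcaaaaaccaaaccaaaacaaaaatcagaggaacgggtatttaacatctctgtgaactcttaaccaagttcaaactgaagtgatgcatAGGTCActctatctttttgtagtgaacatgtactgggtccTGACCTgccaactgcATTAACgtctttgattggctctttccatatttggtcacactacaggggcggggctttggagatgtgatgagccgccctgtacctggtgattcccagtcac
Slc10a1 and Abcc2 each held 2 matches to AGGTCA and 1 to GTTAAT, while Slco2b1 held neither. Slco1a1, also in a pair that passed, held neither in its window at chr4:176681993-176682242 on the minus strand, whose letters are left out. Of the 33469 promoters of the same length, 14.1% held AGGTCA and 6.45% held GTTAAT. Of the 6 members whose promoter was matched by symbol, 2 held each motif, and 0 held TGTTTAC, a forkhead motif present in 3.21% of all promoters. The matches are letters in a window of DNA and say nothing of binding.

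Around the transporters, 6 lists of genes were followed, 50 of them measured: other uptake carriers, other canalicular pumps and flippases, other basolateral exporters, bile acid sensing, the anchoring and trafficking of transporters, and bile acid synthesis and conjugation. In ChGENE against Ch 1 gene fell and 0 rose, where 0.319% of all probes passed. In both other comparisons 0 passed, where 0% (ChHAYW against Ch) and 0.00659% (ChGENE against ChHAYW) of all probes did. The gene that fell was Slc27a5, the bile acid-CoA ligase that starts conjugation. It ranged from 7.59 to 8.79 in Ch (median 8.05), from 6.90 to 7.60 in ChGENE (median 7.23) and from 7.15 to 7.98 in ChHAYW (median 7.44). The ranges of ChGENE and Ch overlapped by only 0.01. Its log2 change was -0.95 ± 0.182 (SE) in ChGENE (adjusted p = 0.0448) and -0.63 in ChHAYW (adjusted p = 0.11). The call was lost without any one of 13 of the 16 rats, where the change stayed between -1 and -0.86. It was also lost with the change itself smaller under spike-in scaling (-0.49), quantile normalization (-0.58), cyclic loess normalization (-0.66) and the brightness covariate (-0.61). With scaling to the 75th percentile of detected probes (-0.88) and with the replicate number as a block (-0.95) it was lost as well.

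Of the other bile acid genes, Cyp8b1, Baat and Nr0b2 had an adjusted p just above 0.05 in ChGENE against Ch. Such values were common: 18 of the 50 genes had an unadjusted p below 0.05 (limma), beside 8176 of all 30367 probes. The adjusted p of Cyp8b1 was shared by Baat (log2 change -0.49), which was above background in all rats. It was also shared by Slc47a1, which was above background in 0 rats. Cyp8b1, the sterol 12-alpha-hydroxylase that sets the share of cholic acid, ranged from 0.16 to 4.57 in Ch (median 2.29) and from 3.79 to 5.27 in ChGENE (median 4.27), a log2 change of 2.11 (adjusted p = 0.0608) that was 0.99 with the brightness covariate (adjusted p = 0.309). In ChHAYW its change was 0.94 (adjusted p = 0.242). Cyp7a1, of the same synthesis list, changed by -1.73 in ChGENE (adjusted p = 0.089) and by -1.18 in ChHAYW (adjusted p = 0.183). Nr0b2, the repressor SHP, ranged from 4.19 to 6.42 in Ch (median 5.37) and from 3.16 to 4.64 in ChGENE (median 4.18), a change of -1.34 (adjusted p = 0.0521), and in ChHAYW it was -0.87 (adjusted p = 0.114). The bile acid sensing list had 1 gene higher and 9 lower of 11 measured in ChGENE, with a median of -0.28, and the synthesis list 2 higher and 8 lower of 10, with a median of -0.50. Over all probes 66.1% were lower in ChGENE, with a median of -0.16. Of the 14045 probes above background on all arrays 57.2% were lower, with a median of -0.05. Gpbar1, 1 of the 9 lower sensing genes, was above background in 0 rats.

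Among the other carriers, Slco1a2, an organic anion transporter of the same family as Slco1a1, ranged from 5.24 to 6.29 in Ch (median 5.87) and from 2.16 to 5.08 in ChGENE (median 4.53), so that every ChGENE rat lay below every Ch rat. The change was -1.76 (adjusted p = 0.0558). It was named for the smallest p of its list, which favours groups without overlap, and the share of all probes without overlap was not counted. The 2 lowest were ChGENE rats 4 (2.27) and 5 (2.16), the rats with the high neutrophil marker sums, and without both the change was -1.14 (adjusted p = 0.0517). The 7 measured genes of this list had 4 higher and 3 lower in ChGENE, with a median of 0.02. Without these 2 rats the change of Slc10a1 over Ch was -0.88, that of Abcb11 0.39 and that of Abcc2 0.25, and no transporter probe passed.

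Pdzk1, a scaffold protein that anchors membrane transporters, ranged from 0.66 to 1.82 in Ch (median 0.76), from 1.49 to 2.04 in ChGENE (median 1.63) and from 0.41 to 1.44 in ChHAYW (median 1.08). The groups with the 2 cultivars did not overlap, and the change of ChGENE was 0.67 over Ch (adjusted p = 0.0608; 0.37 with the brightness covariate) and 0.71 over ChHAYW (adjusted p = 0.13). Slc9a3r1, the scaffold NHERF1, was -0.51 in ChGENE and -0.52 in ChHAYW (adjusted p = 0.306 and 0.11). Abcb1a, a canalicular P-glycoprotein, ranged from -4.88 to -4.04 in ChGENE (median -4.27) and from -3.88 to -3.30 in ChHAYW (median -3.67), also without overlap. Its change was -0.72 (adjusted p = 0.0697), and -0.24 with normexp background correction. Abcb1a was dim, above background in 5 of 8 Ch rats and in all rats of the other diets. Its change in ChGENE over Ch was -0.59 (adjusted p = 0.132). Pdzk1 and Abcb1a were named for the smallest p of a list, which favours groups without overlap. How many of all probes had none was not counted. Of the remaining genes with the smallest p in a list, Rxra changed by 0.39 and Abca1 by -0.19 between the cultivars (adjusted p = 0.577 and 0.825). Slc47a1, Slc51a and Gpbar1 were not well above background, with 0 or 1 of 8 rats above it in each diet, and no fold is given for them.

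**Figure D5:**
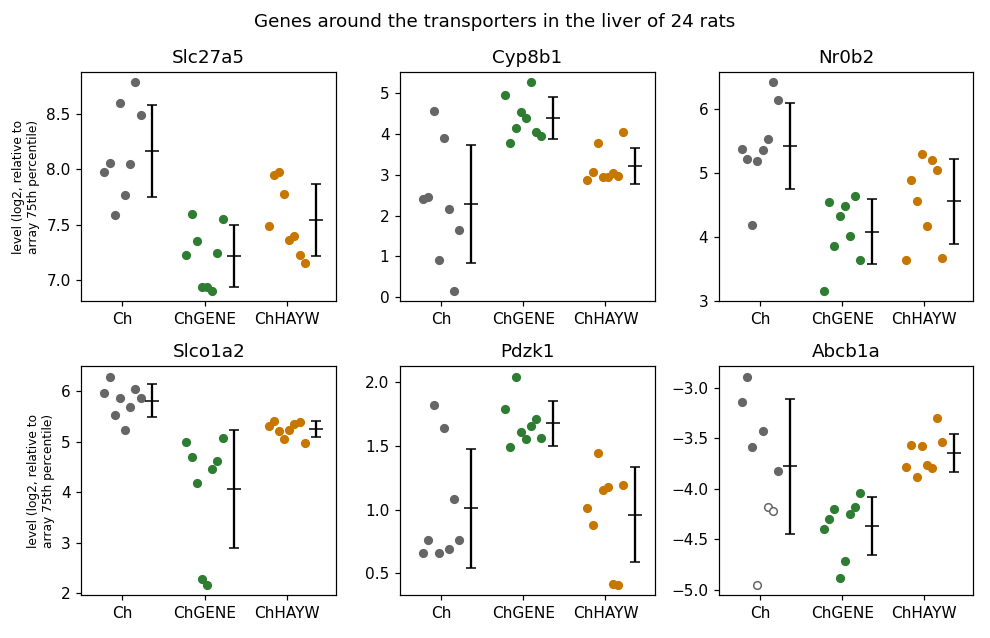
Level of 6 genes of bile acid synthesis, sensing, transport and anchoring (log2, relative to the 75th percentile of the array, y axis) in the 8 rats of each diet (x axis). Points are rats, open points are not above background, and bars are the mean ± SD. Slco1a2 lies below all Ch rats in every ChGENE rat, and Slc27a5, the only one of the 6 that passed in ChGENE against Ch, overlaps by 0.01.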

How the data were processed

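Liver RNA (integrity number at least 9.2) was labelled with Cy3 and hybridised to 1-colour Agilent arrays. The authors extracted intensities with Agilent Feature Extraction 10.10.1.1; the deposited intensity values are background-corrected and not scaled between arrays. Spots marked as outliers were left out, replicate spots were averaged on the log2 scale and each array's 75th percentile was subtracted. The 30367 non-control probes were fitted with limma 3.58.1 (R 4.3.3; lmFit and eBayes) on the 16 arrays of each comparison, with Benjamini-Hochberg adjustment, at a 1.3-fold difference and an adjusted p below 0.05. The precision is limited by 8 rats per diet. A probe was above background on an array where at least 0.5 of its spots were so marked. Permutation tests used 100000 resamples. The code was tested on simulated data. The members, lists and tests were chosen with earlier results of these data known. Genes of a list were named if called or if they had the smallest p of the list in a comparison, and each member's most similar gene by r. Baat and Cyp7a1 were named in addition, from the list of Cyp8b1. Gene lists came from textbook knowledge. Slco1a4 and Klb had no probe under their symbol.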

Additional observations from a re-analysis of the deposited data

Results flagged for a closer look

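In 3 of the 27 groups of 8 rats (9 probes on 3 diets), 1 rat stood far from the others by Dixon's gap ratio (the gap to the next rat over the range of the group); chance gives about 1 in 20 groups. Slco2b1 was highest in ChGENE rat 1, at 1.58 against 1.1 for the next rat (ratio 0.732). Abcc4 probe 2 was highest in the same rat, at -2.39 against -2.89 (ratio 0.564). Abcb4 was highest in ChHAYW rat 8, at 1.40 against 0.90 (ratio 0.666). Without ChGENE rat 1 or without ChHAYW rat 8 no transporter probe passed in either comparison of that diet.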

How the results depend on the processing

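Each comparison was refitted under 15 other settings and without each rat in turn. The count of transporter probes called stayed at 0 in all of them except with normexp background correction (3 in ChGENE against Ch and 2 in ChHAYW against Ch, of 9, where 33.6% and 37.8% of all probes were called), with array weights (3 and 1, beside 12.1% and 18.8%) and without single rats in ChHAYW against Ch (0 to 1; 0 to 0 in both other comparisons). The 1 call without a single rat came where 12.1% of all probes were called. Over the same settings and without single rats, the calls among all probes ranged from 0 to 10197, 0 to 11480 and 0 to 62 in the 3 comparisons, beside 97, 0 and 2. The share of lower ones among the calls of ChGENE against Ch was 78.4%, and 4.35% under spike-in scaling. The cause of these moves was not tested.

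Of the pathway genes, 1 was called in ChGENE against Ch, 13 with normexp and with array weights, 9 with median scaling and with all 24 arrays in 1 fit, 3 with the filter on dim probes and with limma's trend and robust options, and 0 with quantile, detected-probe, spike-in or loess scaling, with array brightness as a covariate and without both ChGENE rats 4 and 5 (chosen after seeing the data). Without single rats it was 0 to 11, beside 0% to 16.3% of all probes. Of all probes 33.6% were called with normexp, 12.1% with array weights, 15.2% with median scaling and 9.43% with all 24 arrays. With the filter on dim probes it was 0.936% of those tested, and with trend and robust options 0.445%. The 13 of 50 genes with normexp were fewer than the share of all probes gives. The counts with array weights, median scaling and all 24 arrays were more, and neither was tested. In ChHAYW against Ch it was 0, and 12 with normexp, 7 with median scaling and 11 with array weights. Of all probes these 3 settings called 37.8%, 10.7% and 18.8%. The count without single rats was 0 to 8, beside 0% to 15.1% of all probes. Between the cultivars it was 0, 1 with normexp and with the dim filter, and 3 with array weights. Of the 28 pairs, 3 passed, and 8 under median scaling.

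No transporter change that turned its sign had passed the test. In ChGENE against Ch, Abcc4 probe 2 turned to 0.07 with quantile, 0.05 with detected-probe and 0.44 with spike-in scaling, and ranged from -0.33 to 0.1 without single rats. Spike-in scaling turned Abcc4 probe 1 to 0.03, Slco1a1 to 0.24 and Slco2b1 to 0.15, and the brightness covariate turned Abcb11 to -0.13. In ChHAYW against Ch, normexp turned Abcc4 probe 1 to -0.05, probe 2 to -0.08 and Slco2b1 to 0.01. Abcc4 probe 1 was also 0.00 with quantile, -0.01 with loess and -0.1 with array weights, and -0.04 to 0.1 without single rats. Slco2b1 was 0.03 with detected-probe and 0.62 with spike-in scaling, and -0.14 to 0.06 without single rats, and Abcc3 was 0.08 with spike-in scaling. The brightness covariate gave -0.01 and -0.2 for the Abcc4 probes, -0.31 for Slc10a1, -0.12 for Slco1a1, -0.52 for Abcb11 and -0.1 for Abcb4. Between the cultivars, Abcb11 was -0.13 with spike-in scaling, -0.14 with array weights, -0.16 without both ChGENE rats 4 and 5 and -0.17 to 0.29 without single rats, and Abcc3 was -0.62 to 0.04. Of the remaining fits of a transporter probe under another setting, 9 passed and 369 kept direction and side of the threshold. The filter on dim probes left out Abcc3.

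Rats of the same number in different diets did not deviate together in general (r of -0.42 to 0.49). The own number was the best match for 1, 0 and 0 of 8 rats in the comparisons. The labels give only a number, so whether it pairs rats is not known. With the replicate number as a block, 0 transporter probes and 0 pathway genes were called in each comparison. Abcc3, and Abcc4 probe 2 in Ch, are limited by signal near background.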
